A study of Mus musculus with 10 samples.

Results

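Genes of the mitotic spindle and the kinetochore were followed through osteogenic differentiation of MC3T3-E1 cells, a line of mouse pre-osteoblasts, by RNA sequencing. The set was given as a list of 50 gene names covering mitotic cyclins and kinases, spindle motors, and kinetochore and centromere proteins, and all 50 had a row among the 40620 genes of the count table. The rule uses no measured level, although the list was drawn up with earlier results of these data known. Total RNA came from 5 stages with 2 replicates each, named A and B. Subconfluent cells and confluent cells were in growth medium, αMEM with fetal bovine serum. The later cells had spent 24 h, 14 d or 21 d in the same medium with ascorbic acid and β-glycerophosphate. No stage carried a genetic change, and there was no parallel culture kept in growth medium for 14 d or 21 d, so time in culture and osteogenic medium cannot be told apart. The labels do not say whether replicates were separate cultures, so the p-values below measure the spread between these samples, which may be technical.

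A cell divides its chromosomes on the mitotic spindle, a bipolar array of microtubules that attaches to each chromosome at the kinetochore, a layered protein structure built on centromeric chromatin. Cdk1 bound to a mitotic cyclin starts the process, and the spindle checkpoint holds it back until every kinetochore is attached. The anaphase-promoting complex then marks securin and cyclin B for destruction, separase cuts the cohesin rings, and the chromatids move apart. Most of these genes are transcribed mainly in G2 and mitosis, so their RNA is low in cells that have stopped dividing, and differentiating osteoblasts are known to leave the cell cycle.

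The total on genes ranged from 44736156 to 162939333 counts per sample, and the lowest count of any of the 50 genes in any sample was 40, for Cenpk at 21 d. All 50 passed the filter on low counts that left 20808 genes for testing. The 6 osteoblast markers, among them Col1a1 and Runx2, summed to at least 4888 RPKM in every sample. At 14 d against confluent cells none of the 6 had a log2 fold change below 0, and the median was 1.90 against 0.03 over all genes. At 21 d against subconfluent cells 1 of the 6 was below 0, and the median was 1.885 against 0.04. At 21 d against 14 d all 6 had log2 fold changes below 0, with a median of -0.82 against -0.03 over all genes. The endothelial and skeletal muscle markers were all below 1 RPKM in every sample, and Ptprc, the marker of all white blood cells, was listed at 0 in all 10. Of 8 macrophage and blood markers, Lyz2 and Csf1r were above 1 RPKM, and the list summed to between 13.3 and 19.3 RPKM with no fall across the stages. Of 5 adipocyte markers only Fabp4 reached 1 RPKM, with 1.06 RPKM in a 24 h sample. Of 4 cartilage markers, Acan and Col9a1 stayed below 1 RPKM, but Col2a1 was expressed, at 157 and 156 RPKM in subconfluent cells, 81.1 and 74.8 in confluent cells, 33.1 and 44.9 at 24 h, 202 and 210 at 14 d and 73.0 and 78.4 RPKM at 21 d. Col2a1 was thus lower at 21 d than at 14 d, as were the osteoblast markers and 49 of the 50 genes. It was higher at 14 d than before, and the part of Col2a1 in the results was not tested. Comp, the remaining cartilage marker, was not below 1 RPKM in every sample. At 21 d against subconfluent cells the 3 cartilage markers tested had log2 fold changes from -0.93 to 8.50, with a median of 2.63 and 1 below 0. At 21 d against 14 d they ran from -2.09 to 0.03. The subconfluent, confluent and 24 h libraries carried one pair of index sequences and the 14 d and 21 d libraries another, so early against late stages and one set of libraries against the other cannot be told apart. Comparisons inside a set, as judged by index alone, are confluent against subconfluent, 24 h against confluent, and 21 d against 14 d. Within the sets, confluent A and 24 h A share an index and a lane number. So do 21 d A and part of 14 d A, which was sequenced in 2 lanes. Reads alike in both cannot come from the same run, and the labels do not give the run of each library. For confluent A and 24 h A, run and stage cannot be told apart. For 14 d A, at least the part that shares the lane number comes from another run than 21 d A. The run of the rest is not known.

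The 50 genes together held 0.503% and 0.495% of all counts in the subconfluent replicates and 0.0506% and 0.0674% at 21 d. Per length, their summed level was 2082 and 2058 RPKM in subconfluent cells, 1752 and 1716 RPKM in confluent cells, 1120 and 1174 RPKM at 24 h, 791.2 and 748.7 RPKM at 14 d, and 227.4 and 298.5 RPKM at 21 d. The sum was lower at every later stage, with no overlap between the replicates of neighbouring stages. In these bulk samples, fewer dividing cells and less of this RNA per cell cannot be told apart. The stage means were lower at every step for 44 of the 50 genes, and the exceptions were Cdc25c, Cenpa, Ect2, Kifc1, Mad2l1 and Pttg1. In subconfluent cells 46 genes had a mean of at least 10 RPKM, while at 21 d only 6 did and 14 were below 2 RPKM. The order of the genes by level was largely kept: the rank correlation of stage means with the subconfluent means was 0.98 in confluent cells, 0.96 at 24 h, 0.96 at 14 d and 0.87 at 21 d, over the same 50 genes with the same lengths in every stage.

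**Figure D1:**
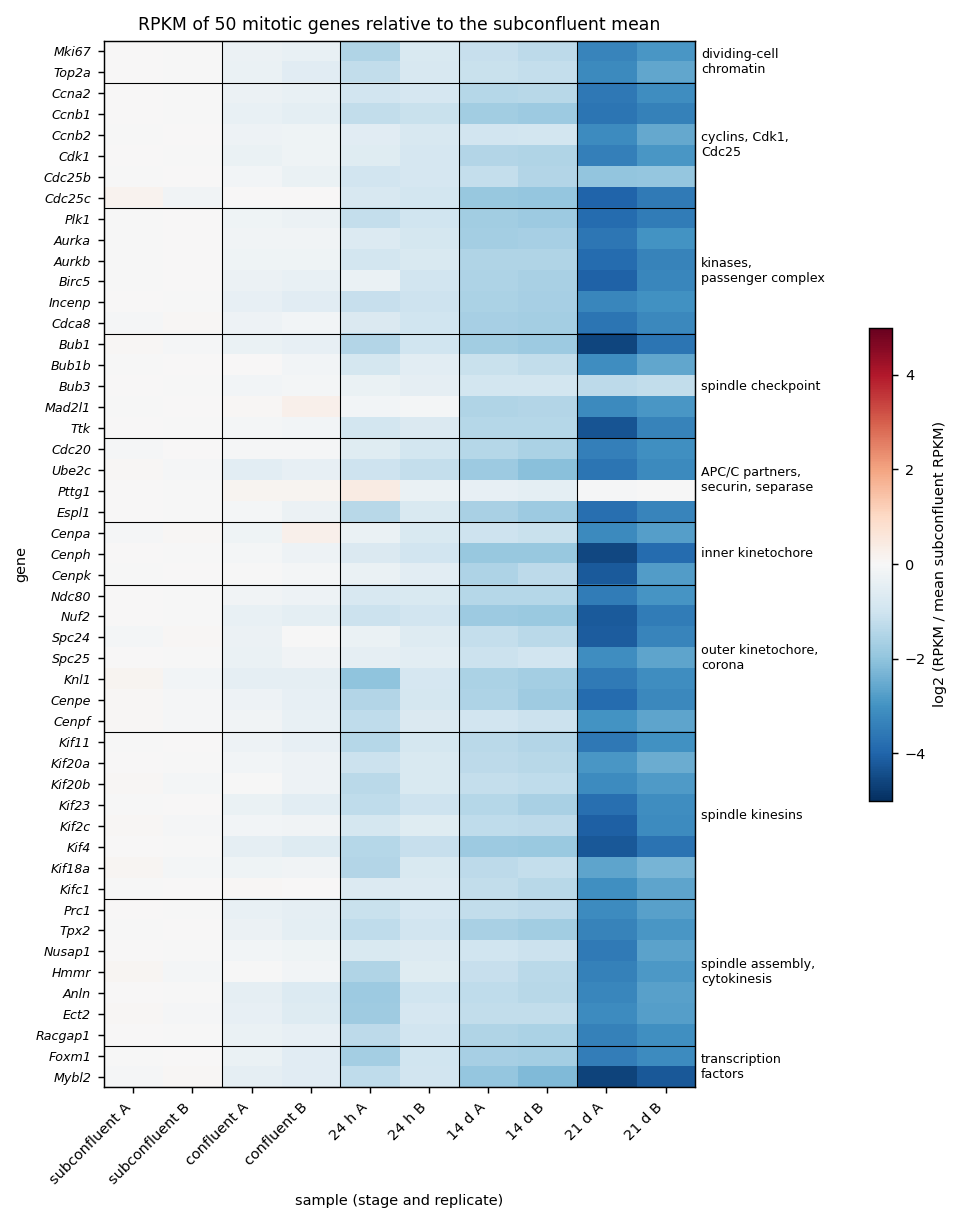
Level of each of the 50 genes (rows, grouped by role) in each of the 10 samples (columns), as log2 of RPKM over the gene's mean in the 2 subconfluent samples. In every role group most rows turn bluer from the subconfluent to the 21 d columns, though not at every column between. The 21 d columns are the darkest, and the row of Pttg1 stays near white.

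At 21 d against subconfluent cells, 49 of the 50 genes were called lower, where a call is an adjusted p-value under 0.05 in edgeR's quasi-likelihood test and a change of more than 2-fold. Among all genes tested 11.3% were called lower in the same comparison. None of the 50 was called higher, as 16.3% of all genes were. The median log2 fold change was -3.11, against 0.04 over all genes, and 47 of the 50 fell by more than 4-fold. The count was 49 in every fit that left out a sample or changed the normalization, filter or test. The gene that was not called was Pttg1, and the next smallest changes were those of Bub3 and Cdc25b. The largest were those of Mybl2, Cenph and Bub1. For all 49 genes both 21 d replicates lay below both subconfluent replicates, which was so for 44.6% of all genes.

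**Figure D2:**
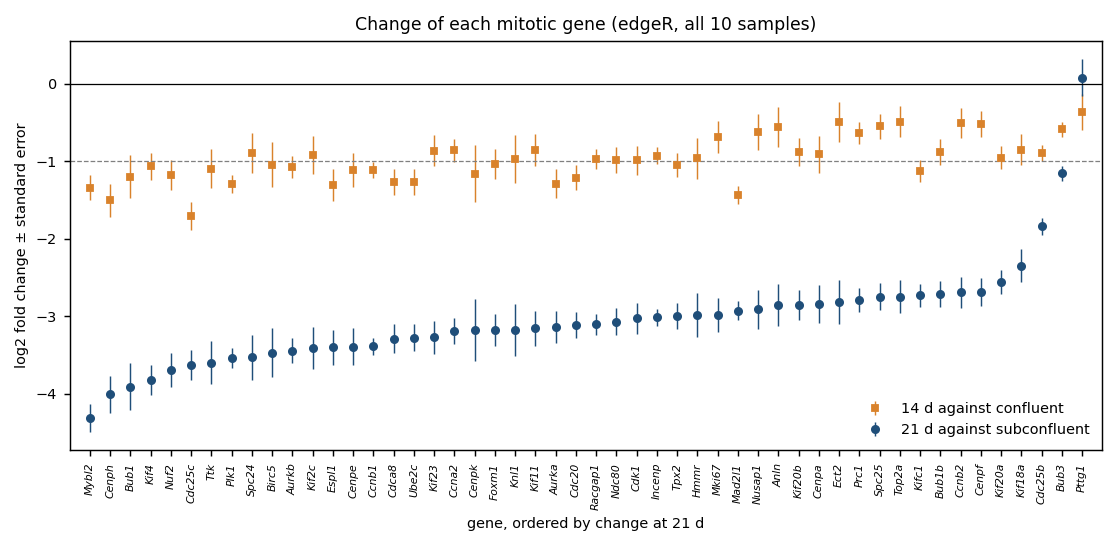
Log2 fold change with its standard error for each of the 50 genes, at 21 d against subconfluent cells (circles) and at 14 d against confluent cells (squares), ordered by the former. The circles run from -4.31 for Mybl2 to 0.08 for Pttg1, and the dashed line marks a 2-fold fall.

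The cyclins, Cdk1 and the Cdc25 phosphatases form the switch into mitosis, and all 6 fell at 21 d, by a median log2 fold change of -3.11 (the unit of every change below unless another is named, with SE for its standard error). Cdk1, the kinase of the switch, had the highest mean level of the group. Its RPKM values were 85.0 and 82.4 in the subconfluent replicates, 66.1 and 72.0 in the confluent, 55.0 and 46.9 at 24 h, 30.7 and 29.4 at 14 d and 7.73 and 11.2 at 21 d, so that the stages followed each other without overlap. The log2 fold change at 21 d was -3.02 (SE 0.20, adjusted p = 2.47e-05). Its partners Ccnb1, Ccnb2 and Ccna2 fell by log2 fold changes of -3.38, -2.69 and -3.19. The phosphatases that activate Cdk1 differed from each other. Cdc25c was at 20.5 and 16.1 RPKM in subconfluent cells, 18.5 and 18.3 in confluent cells, 10.5 and 9.77 at 24 h, 4.96 and 4.78 at 14 d and 1.13 and 1.58 RPKM at 21 d, a change of -3.63 (SE 0.20, adjusted p = 1.24e-05). Cdc25b was at 28.2 and 28.8 RPKM, 26.2 and 22.8, 14.8 and 15.9, 12.4 and 10.3 and 7.22 and 7.49 RPKM in the same order, a change of -1.84 (SE 0.11, adjusted p = 1.48e-05). The ratio of Cdc25b to Cdc25c in RPKM was therefore 1.59 ± 0.295 (SD, n = 2) in subconfluent cells and 5.58 ± 1.17 at 21 d. Exons of both overlap an exon of another gene on the opposite strand, Spef1 and Gm3550, whose mean counts were 13730 and 13765, larger than the 4279 of Cdc25b and the 1474 of Cdc25c. Whether the counting used strand is not given in the sources used here, so reads of such partners cannot be told apart.

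Mki67, the proliferation antigen that coats mitotic chromosomes, and Top2a, the topoisomerase that untangles sister chromatids, fell by log2 fold changes of -2.98 and -2.75. Top2a was at 75.5 and 72.3 RPKM in subconfluent cells, 58.0 and 49.9 in confluent cells, 31.4 and 42.6 at 24 h, 34.3 and 31.9 at 14 d and 8.18 and 12.1 RPKM at 21 d. The 24 h and 14 d values of Top2a overlapped, and its log2 fold change between these stages was -0.03 (SE 0.20, adjusted p = 0.95).

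All 6 mitotic kinases and passenger complex genes fell at 21 d, with a median log2 fold change of -3.36. The chromosomal passenger complex, made here of Aurkb, Incenp, Birc5 (survivin) and Cdca8 (borealin), corrects faulty attachments, while Plk1 and Aurka act at centrosomes and spindle poles. Incenp, the scaffold of the complex, was highest among them at 92.0 and 90.7 RPKM in subconfluent cells, 68.8 and 62.3 in confluent cells, 40.6 and 44.7 at 24 h, 30.7 and 28.6 at 14 d and 9.51 and 11.3 RPKM at 21 d. No stages overlapped. The log2 fold changes at 21 d were -3.01 for Incenp, -3.44 for Aurkb, -3.47 for Birc5, -3.29 for Cdca8, -3.53 for Plk1 and -3.14 for Aurka, each with a standard error between 0.11 and 0.32. The ratio of Aurkb to Aurka stayed between 1.06 and 1.45 as a stage mean.

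Of the spindle checkpoint genes, all 5 fell at 21 d, over a wide range of sizes. Bub1, a kinase of the checkpoint that sits on the kinetochore, was at 21.3 and 19.6 RPKM in subconfluent cells, 16.3 and 15.3 in confluent cells, 7.39 and 10.3 at 24 h, 6.13 and 5.73 at 14 d and 0.838 and 1.64 RPKM at 21 d, a change of -3.91 (SE 0.30, adjusted p = 5.1e-05). Bub3, the protein that carries Bub1 to the kinetochore, was at 65.0 and 63.5 RPKM, 58.4 and 60.4, 51.4 and 47.0, 33.8 and 34.1 and 26.1 and 27.3 RPKM in the same order, a change of -1.15 (SE 0.09, adjusted p = 6.5e-05). Both genes fell without overlap between the first and last stage, and Bub3 kept 41.5% of its subconfluent mean where Bub1 kept 6.06%. The ratio of Bub3 to Bub1 was 3.15 ± 0.127 (SD, n = 2) in subconfluent cells and 23.9 ± 10.2 at 21 d, where the replicates gave 31.1 and 16.6. At 21 d Bub3 was the most abundant of the 50 genes per length, with a mean of 26.7 RPKM, whereas in subconfluent cells it was Ube2c, with 142 RPKM. Mad2l1 (Mad2), a part of the inhibitor of the anaphase-promoting complex that the checkpoint produces, took another course in time. Its values were 78.3 and 78.5 RPKM in subconfluent cells, 81.3 and 94.5 in confluent cells, 71.4 and 73.4 at 24 h, 27.6 and 28.4 at 14 d and 8.68 and 10.3 RPKM at 21 d. The mean was highest in confluent cells, although the step from subconfluent cells was 0.14 (SE 0.11, adjusted p = 0.611), and the 24 h values lay below all the earlier ones. Between 24 h and 14 d it fell, by a log2 fold change of -1.25, and at 21 d against subconfluent cells it had fallen by -2.93. Bub1b (BubR1) and Ttk (Mps1) fell by log2 fold changes of -2.71 and -3.60.

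The anaphase-promoting complex needs Cdc20 as its activator and Ube2c as its ubiquitin-conjugating enzyme, and its substrate securin, encoded by Pttg1, keeps separase (Espl1) inactive. Of these 4 genes, 3 fell at 21 d and Pttg1 was not called. Ube2c was at 146 and 138 RPKM in subconfluent cells, 98.9 and 108 in confluent cells, 69.9 and 62.3 at 24 h, 40.0 and 33.8 at 14 d and 11.4 and 15.6 RPKM at 21 d, a change of -3.27 (SE 0.18, adjusted p = 1.27e-05). Cdc20 fell by a log2 fold change of -3.11. Espl1 had 14.6 and 14.3 RPKM, 13.6 and 11.9, 5.50 and 8.59, 4.72 and 4.16 and 1.06 and 1.46 RPKM over the same stages, a log2 fold change of -3.40 (SE 0.22, adjusted p = 2.51e-05). Pttg1 (Ensembl ENSMUSG00000020415; GRCm38 chromosome 11 from 43420250 to 43426251, minus strand) had 16.0 and 15.7 RPKM in subconfluent cells, 17.4 and 17.5 in confluent cells, 21.2 and 12.6 at 24 h, 11.9 and 11.4 at 14 d and 15.2 and 15.7 RPKM at 21 d. The 21 d and subconfluent values overlapped, and the lowest stage was 14 d. The log2 fold change of Pttg1 was 0.08 (SE 0.23, adjusted p = 0.803) at 21 d against subconfluent cells, and 0.33 (SE 0.24, adjusted p = 0.481) at 21 d against 14 d. Its sign at 21 d against subconfluent cells depended on the scaling and was negative, at -0.08, with library size alone. An F test over the 5 stages passed for 49 of the 50 genes, where 48.9% of all genes passed, and gave Pttg1 an adjusted p of 0.549. Between the 24 h replicates it differed more than any other of the 50 genes in the direction of replicate A, by 0.75 on the log2 scale. When the 24 h samples or either of them were left out, the F test passed for all 50 genes. The ratio of securin to separase RNA, in RPKM, was 1.09 ± 0.00222 (SD, n = 2) in subconfluent cells, 2.63 ± 0.143 at 14 d and 12.5 ± 2.47 at 21 d. None of the 51-base stretches of Pttg1 transcripts occurs in another annotated gene of GENCODE vM21.

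**Figure D3:**
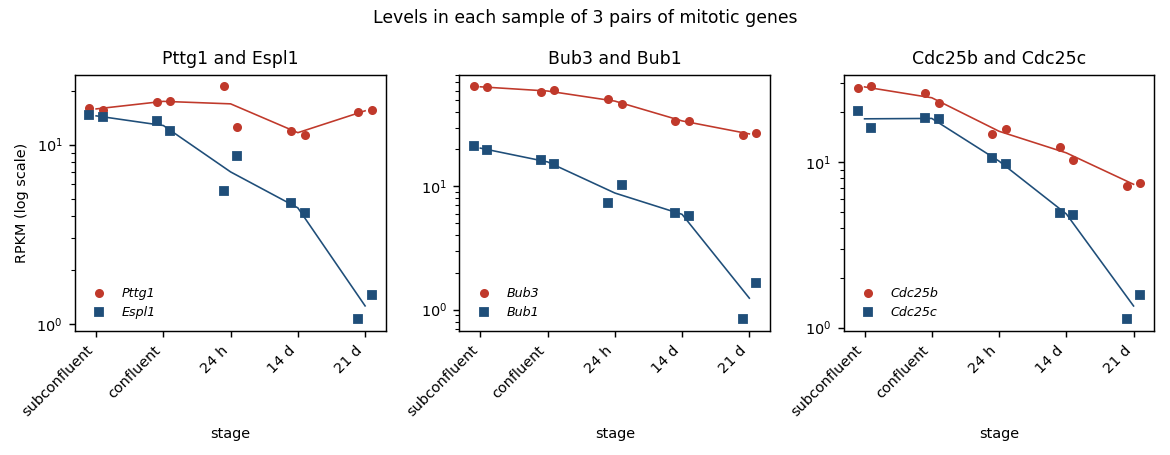
RPKM on a log scale in each sample (points, replicate A left and B right) and stage mean (lines) of Pttg1 and Espl1, Bub3 and Bub1, and Cdc25b and Cdc25c. In each panel the gene in blue fell further than its partner in red, and the 2 genes are farthest apart at 21 d.

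The inner kinetochore rests on Cenpa, the histone H3 variant of centromeres, and all 3 of its genes in the list fell. Cenpa was at 66.0 and 73.3 RPKM in subconfluent cells, 60.5 and 83.3 in confluent cells, 55.6 and 41.4 at 24 h, 34.0 and 31.8 at 14 d and 7.59 and 10.3 RPKM at 21 d, a change of -2.84 (SE 0.25, adjusted p = 8.33e-05). The confluent replicates of Cenpa differed so widely that they enclosed the subconfluent ones. Cenph, a member of the constitutive centromere network, was at 18.9 and 18.6 RPKM in subconfluent cells, 17.4 and 15.5 in confluent cells, 11.4 and 9.67 at 24 h, 5.00 and 5.00 at 14 d and 0.805 and 1.31 RPKM at 21 d, a change of -4.00 (SE 0.24, adjusted p = 1.71e-05). It kept 5.65% of its subconfluent mean, and Cenpk, its partner in the same network, kept 9.93%.

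The outer kinetochore binds the microtubule, and all 7 genes of this layer and of the fibrous corona fell, by a median of -3.18 on the log2 scale. The Ndc80 complex, the main microtubule coupler, consists of Ndc80, Nuf2, Spc24 and Spc25, which are present in equal numbers in the protein complex. Their log2 fold changes were -3.07, -3.69, -3.53 and -2.75. Nuf2 was at 48.0 and 47.3 RPKM in subconfluent cells, 36.6 and 33.5 in confluent cells, 22.5 and 24.4 at 24 h, 13.6 and 13.2 at 14 d and 2.56 and 4.19 RPKM at 21 d, with no overlap between stages. The ratio of Nuf2 to Ndc80 went from 1.39 ± 0.0267 (SD, n = 2) in subconfluent cells through 1.05 ± 0.0254 at 14 d to 0.891 ± 0.0615 at 21 d. Knl1, the platform for checkpoint proteins, and the large corona proteins Cenpe and Cenpf fell by log2 fold changes of -3.18, -3.39 and -2.68.

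Kinesins slide, bundle and depolymerize spindle microtubules, and all 8 of the list fell, by a median of -3.00 on the log2 scale. Kifc1, the minus-end motor that focuses spindle poles, was at 59.4 and 62.3 RPKM in subconfluent cells, 62.6 and 62.1 in confluent cells, 37.9 and 37.5 at 24 h, 26.2 and 23.0 at 14 d and 7.23 and 9.69 RPKM at 21 d. Its subconfluent and confluent values overlapped, and its log2 fold change at 21 d was -2.73 (SE 0.15, adjusted p = 1.26e-05). It is the member with the largest share of sequence in other genes: 39.1% of its 51-base stretches occur in close copies such as Kifc5b, and how such reads were counted is not given in the sources used here. The largest fall of the group was that of the chromokinesin Kif4, at -3.82, and the smallest that of Kif18a, which dampens chromosome oscillation, at -2.35. Kif11 (Eg5), which pushes the poles apart, fell by a log2 fold change of -3.15, and the depolymerase Kif2c (MCAK) by -3.41. The kinesins of the central spindle and midzone, Kif23, Kif20a and Kif20b, changed by -3.27, -2.56 and -2.85. Kif20a shares 1271 exon bases with Cdc23 on the opposite strand.

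All 7 spindle assembly and cytokinesis genes fell, within the narrow range of -3.10 to -2.79. Racgap1 and Ect2 set the place of the contractile ring, Anln (anillin) builds it, Prc1 bundles the midzone, and Tpx2, Nusap1 and Hmmr act in spindle assembly. Racgap1 was at 85.7 and 82.3 RPKM in subconfluent cells, 67.0 and 63.1 in confluent cells, 34.3 and 43.8 at 24 h, 29.5 and 27.7 at 14 d and 8.16 and 9.90 RPKM at 21 d. Ect2 was at 26.1 and 24.5 RPKM, 19.2 and 16.1, 7.36 and 14.2, 10.8 and 10.8 and 2.85 and 3.76 RPKM in the same order. The stages of Racgap1 did not overlap, whereas the 24 h replicates of Ect2 lay on both sides of its 14 d values. Both fell at 21 d, Racgap1 by a log2 fold change of -3.10 (SE 0.13, adjusted p = 5.54e-06) and Ect2 of -2.81 (SE 0.28, adjusted p = 0.000154).

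The transcription factors Foxm1 and Mybl2 (B-Myb) activate many genes of this kind in G2. Foxm1 was at 47.6 and 48.7 RPKM in subconfluent cells, 38.7 and 32.9 in confluent cells, 15.0 and 24.3 at 24 h, 15.2 and 14.8 at 14 d and 4.42 and 5.38 RPKM at 21 d, a change of -3.18 (SE 0.21, adjusted p = 2.54e-05). Mybl2 was at 14.3 and 15.4 RPKM, 10.9 and 9.93, 6.11 and 7.75, 3.90 and 3.20 and 0.594 and 0.780 RPKM in the same order, a change of -4.31 (SE 0.18, adjusted p = 4.82e-06). It kept 4.62% of its subconfluent mean, the lowest share of the 50 genes, with 96 and 288 counts in the 21 d replicates.

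The steps between successive stages were compared next. In confluent against subconfluent cells 46 of the 50 log2 fold changes were below 0, with a median of -0.26, but none was called, where 0.423% of all genes were called lower. DESeq2 and limma also called none. At an unadjusted p under 0.05 edgeR had 14 of the 50 lower, against 8.44% of all genes. The lowest adjusted p of the 50 was 0.0517 in edgeR, for Incenp, was 4.64e-05 in DESeq2 and reached up to 0.345 in the other fits, so that without the condition on size it fell on both sides of the threshold. In 24 h against confluent cells the median was -0.58 and 49 genes were below 0. None was called, against 0.365% of all genes, and DESeq2 and limma called none either. At an unadjusted p under 0.05 edgeR had 37 lower, against 9.77% of all genes. With no condition on the size of the change, 7 genes passed, against 1.57% of all genes, among them Plk1 with -0.75 (SE 0.12, adjusted p = 0.0147) and Ccnb1 with -0.64 (SE 0.10, adjusted p = 0.0157). The lowest adjusted p of the 50 was 0.303 when these stages were fitted alone and 3.51e-09 in DESeq2. Without 24 h replicate B, 8 genes were called (Anln, Ect2, Espl1, Foxm1, Hmmr, Kif18a, Kif20b and Knl1). At 14 d against 24 h the median was -0.42 and 1 gene was called, Mad2l1, with -1.25 (SE 0.12, adjusted p = 0.000853), against 1.51% of all genes. With no condition on size 13 passed, against 8.21% of all genes. Without 24 h replicate B, 4 were called there, and 3 without either subconfluent replicate, with Cdc25c and Cenph added each time.

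The step from 14 d to 21 d was the largest fall for 49 of the 50 genes, among them Mad2l1 with -1.63. The exception was Pttg1, whose log2 fold change was lowest at 14 d against 24 h. From 14 d to 21 d 47 genes were called lower, where 2.45% of all genes were, and the median log2 fold change was -1.84 against -0.03 over all genes. Both stages belong to one set of libraries by index. The part of 14 d A that shares a lane number with 21 d A cannot come from the same run. The 3 genes not called were Bub3 and Cdc25b, which fell by less than 2-fold (-0.42 (SE 0.09, adjusted p = 0.0321) and -0.70 (SE 0.10, adjusted p = 0.00584)), and Pttg1. The largest fall was that of Spc24, at -2.45, followed by Mybl2 at -2.43. With 1 sample left out at a time the count was between 42 and 47. It was 42 without 21 d replicate A, when Anln, Ect2, Hmmr, Kif18a and Knl1 were no longer called. Of the 6 osteoblast markers, 2 were also called lower from 14 d to 21 d. At 21 d against subconfluent cells 4 of these markers were called higher, against 16.3% of all genes. The intervals between stages differ in length, so the size of a step is not a rate.

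**Figure D4:**
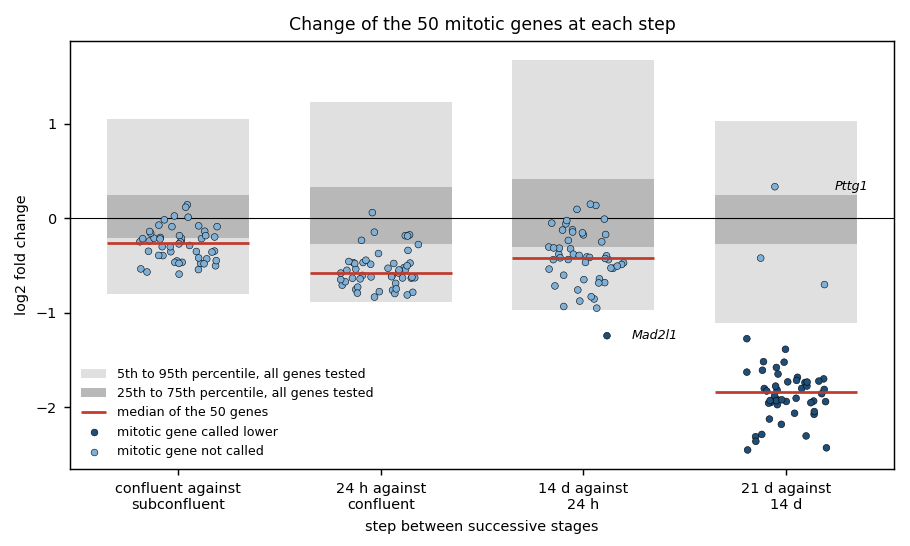
Log2 fold change of the 50 genes (points) at each step between successive stages, over the spread of all genes tested (grey bands). The red line marks the median of the 50 genes, which lies at -0.26, -0.58, -0.42 and -1.84, and at the last step all but 3 points lie below the 5th percentile of all genes, -1.11.

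At 14 d against confluent cells, the span from the onset of osteogenic medium to the first late stage, all 50 log2 fold changes were below 0, with a median of -0.97, and both 14 d replicates lay below both confluent ones for all 50, against 48.2% of all genes. With the median so near a 2-fold change, 22 were called lower, against 3.85% of all genes. Of all 50, 42 passed with no condition on size, where 15.3% of all genes did. The largest falls were those of Cdc25c, -1.70 (SE 0.18, adjusted p = 0.000617), Cenph, -1.50 (SE 0.21, adjusted p = 0.00204), and Mad2l1, -1.44 (SE 0.12, adjusted p = 0.000202). The smallest were those of Pttg1, -0.36 (SE 0.24, adjusted p = 0.283), Top2a, -0.49 (SE 0.20, adjusted p = 0.104), and Ect2, -0.49 (SE 0.26, adjusted p = 0.198). By role, 5 of 6 kinases and passenger genes were called but only 1 of 7 genes of spindle assembly and cytokinesis, Tpx2, and neither Mki67 nor Top2a. The count rose to 39 when only library size was used for scaling instead of TMM factors, which moved the median of all genes from 0.03 to -0.20. This comparison spans both sets of libraries.

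The replicates of 2 stages differed across the gene set. At 21 d, all 50 genes were lower in replicate A than in replicate B, by a median of 0.46 on the log2 scale of RPKM, while 50.2% of the 16121 genes that had 10 or more counts in all samples were lower in A. Of 28 DNA replication genes, 27 were lower in A as well. The differences ran from -1.41 for Cenpk to -0.05 for Pttg1. Leaving out replicate A or B at 21 d changed the median log2 fold change against subconfluent cells from -3.11 to -2.88 or -3.36. At 24 h the ratio of A to B ran from -1.15 to 0.75 over the 50 genes and its rank correlation with gene length was -0.81 over these 50 genes, which all share the same 2 libraries, against -0.41 over all genes. Knl1 was the lowest in replicate A relative to B, with 1.39 and 3.08 RPKM, and Birc5 and Pttg1 were the highest, with 32.5 and 21.2 and 21.2 and 12.6 RPKM. Over all genes this ratio had an SD of 0.685 at 24 h, whereas the other stages gave 0.287 to 0.325. Its rank correlation with length in the other stages was positive. Over the 50 genes it ran from 0.09 at 21 d to 0.53 in confluent cells. Over all genes it ran from 0.1 at 14 d to 0.34 in confluent cells. The part of transcript length or library preparation in the 24 h values was not tested. Removing the trend of the fold change with length left 49 genes called at 21 d against subconfluent cells. The adjusted p-values were kept as they were, so only the condition on size was checked again. That comparison sets no 24 h sample against another stage. At 24 h against confluent cells removing the trend moved the median from -0.582 to -0.581, with 0 genes called as before. At 14 d against 24 h the median went from -0.419 to -0.442, with 1 called as before. These steps combine both 24 h replicates, so they cannot show what length does to the difference between the replicates.

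**Figure D5:**
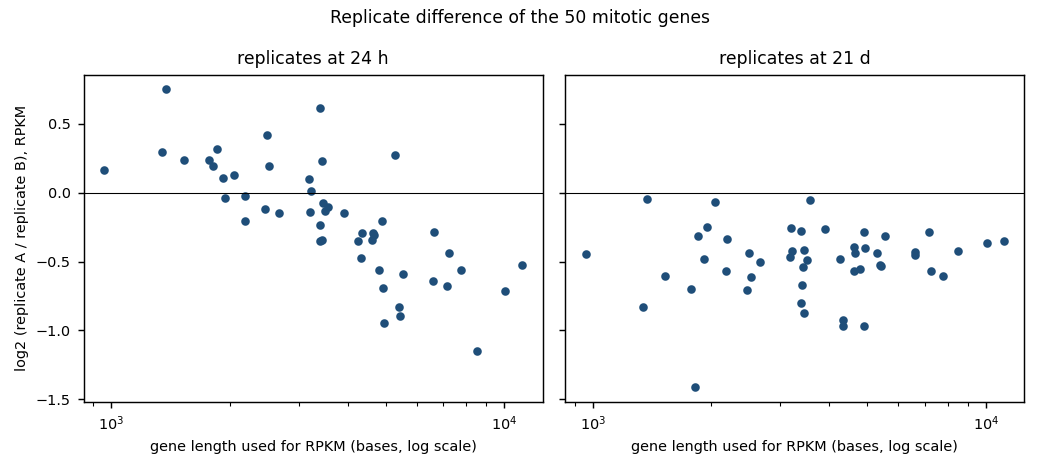
Replicate A over replicate B, as log2 of the RPKM ratio, for each of the 50 genes against the gene's length in bases on a log axis, at 24 h (left) and 21 d (right). At 24 h the points descend from short to long genes, and at 21 d all 50 lie below 0.

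Genes of this kind are known to share a promoter element, the cell cycle genes homology region (CHR), commonly TTTGAA and more rarely TTCGAA, to which the MuvB complex binds with B-Myb and FOXM1 in dividing cells and as the DREAM repressor in resting cells. Upstream of it there are often CCAAT boxes, bound by NF-Y. RefSeq promoter windows of GRCm38.p6, from 250 bases before to 50 after the start site, were found for 42 of the 50 genes, and a search for these letters on both strands, with overlapping matches allowed, was made in them. TTTGAA was present in 29 of the 42 windows (69%), against 18.1% of all 27025 windows and 12.6% of the 11703 windows of tested genes. CCAAT was present in 30 windows (71.4%), against 37.9% of all windows and 39% of those of tested genes. CCAAT together with TTTGAA or TTCGAA occurred in 26 (61.9%), against 7.7% and 6.27%. Such a match is a description of the sequence and not of binding.

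Shown here are 150 bases around the start site of 4 genes from 3 roles that hold both motifs near the start, and of Mybl2, the gene that fell most, whose window holds none of the letters searched. Capitals mark matches of the CHR letters and of the CCAAT box on either strand, and a match on the other strand reads as the reverse complement. Each runs 5′ to 3′ on the gene's own strand from 130 bases before the start site.
Ccnb2, chr9:70421535-70421684 (minus strand): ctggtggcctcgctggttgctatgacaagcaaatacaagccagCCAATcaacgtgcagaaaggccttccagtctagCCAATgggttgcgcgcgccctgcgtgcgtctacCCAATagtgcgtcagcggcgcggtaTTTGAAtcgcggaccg
Cdc20, chr4:118437324-118437473 (minus strand): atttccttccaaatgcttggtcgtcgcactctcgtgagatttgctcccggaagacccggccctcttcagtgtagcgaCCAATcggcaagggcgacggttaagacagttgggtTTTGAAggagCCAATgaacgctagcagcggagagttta
Espl1, chr15:102296163-102296312 (plus strand): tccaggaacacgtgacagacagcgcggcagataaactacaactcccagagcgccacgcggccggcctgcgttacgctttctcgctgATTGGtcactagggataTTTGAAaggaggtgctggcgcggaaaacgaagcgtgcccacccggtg
Kif11, chr19:37376252-37376401 (plus strand): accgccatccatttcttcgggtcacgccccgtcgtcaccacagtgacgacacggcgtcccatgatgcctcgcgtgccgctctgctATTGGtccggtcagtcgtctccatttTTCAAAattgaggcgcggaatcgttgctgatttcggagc
Mybl2, chr2:163054505-163054654 (plus strand): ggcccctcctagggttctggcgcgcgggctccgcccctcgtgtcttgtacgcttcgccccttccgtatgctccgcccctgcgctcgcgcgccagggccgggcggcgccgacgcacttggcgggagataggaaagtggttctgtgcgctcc

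In Ccnb2, Cdc20, Espl1 and Kif11 the CHR letters nearest the start site begin at positions 5, -18, -27 and -19, where the start site is position 1, and at least 1 CCAAT box lies upstream of them in each. These 4 genes fell at 21 d by log2 fold changes of -2.69, -3.11, -3.40 and -3.15, and Mybl2 without the letters by -4.31. The 31 genes with TTTGAA or TTCGAA in the window had a median log2 fold change of -3.02, and the 11 without had -3.38. The window of Bub3, which fell least among the genes called, holds TTTGAA and CCAAT. The window listed for Pttg1 holds neither, but its start site lies 270 bases inside the gene of GENCODE vM21, so the letters were not searched at the outer start. The listed start sites of Cenpa, Bub3, Kif4, Cdca8 and Kif2c likewise lie 109, 148, 328, 2394 and 3867 bases inside their genes. All these windows were counted as listed in the shares and medians above. Those medians therefore do not compare genes with and without the letters at their outer start.

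Other genes of the same machinery were taken from lists made from knowledge of the complexes, and their counts stand beside the 11.3% of all genes called lower at 21 d against subconfluent cells. Of 32 other kinetochore and centromere proteins, 29 were called lower at 21 d against subconfluent cells, led by Cenpu at -4.07 and Kntc1 at -3.54, and the median was -2.28. Of 36 other mitotic kinases, motors and spindle proteins, 30 were called lower, led by Kif15 at -3.83 and Melk at -3.73. Of 17 subunits and regulators of the anaphase-promoting complex 4 were called lower, with a median of -0.57. These were Fbxo5, an inhibitor of the complex, Anapc15, Ube2s and Fzr1, of which Fbxo5 changed most, by -2.77 (SE 0.13, adjusted p = 7.07e-06). Of 18 condensin and cohesin genes 10 were called lower, led by Smc2 at -3.46 and Cdca5 (sororin) at -3.42. Of 18 MuvB, DREAM and E2F factors 10 were called lower, led by E2f7 at -4.66 and E2f8 at -3.99. Of 28 DNA replication genes, which act in S phase, 27 were called lower, led by Mcm10 at -4.33 and Mcm5 at -4.12, with a median of -2.82 beside the -3.11 of the 50 mitotic genes. No gene of these lists was called higher.

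Reads of some of the 50 genes could be shared with other genes. Exons of 13 overlap those of another gene in GENCODE vM21, 12 of them on the opposite strand, and 10 have more than 10% of their 51-base stretches in other genes, with Kifc1 at 39.1%, Kif20a at 25.2% and Ccnb1 at 23.2%. Levels of these genes are uncertain by an amount that these shares do not give, since it also depends on the level of the other gene.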

How the data were processed

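RNA of MC3T3-E1 cells was sequenced by the authors as paired-end reads of 51 bp from 10 samples. The submitters' processing notes name FastQC, TopHat2 2.0.9, R 3.0.1 and the build mm10; the counting tool, its strand setting and the annotation are not given in the sources used here. The authors deposited 2 tables: raw counts per gene, and RPKM values, which they made by scaling counts to gene length and sequencing depth, with no further normalization stated. For 14 d replicate A and 21 d replicate B, sequenced in 2 lanes, the authors' merged column was used. It is not the sum of its lane columns for 13526 and 13582 genes, and over the 50 genes the lane sum was at least 89.6% of it, with medians of 98.4% and 97.7%.

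The 50 genes, their role groups and the other lists were chosen with earlier results of these data known. Identifiers were matched to GENCODE vM21. Stages came from the sample labels. Counts of all 10 samples were fitted in edgeR 4.0.16 (R 4.3.3) with filterByExpr, TMM factors and the quasi-likelihood test, 1 group per stage, and p-values were adjusted by the Benjamini-Hochberg method over all 20808 genes. The standard error (SE) of a log2 fold change was obtained by dividing it by the square root of its F statistic. Levels, ratios and replicate differences were taken from RPKM, as means ± SD without a test. Values in every sample are given for the most abundant gene of each role, the 3 largest and 3 smallest changes at 21 d against subconfluent cells and at 14 d against confluent cells, and genes not called; Espl1, Knl1 and Birc5 were added after their values were seen. Other lists are represented by their 2 largest changes. Promoter sequences are RefSeq's for GRCm38.p6, and the first window was used for 4 genes with more than 1. Alternatives used DESeq2 1.42.0, limma-trend 3.58.1 on log2(RPKM + 1) and log2(RPKM + 0.1), other normalizations, filters, thresholds and subsets of samples. Subtraction of a lowess curve of fold change on gene length, with the p-values left unchanged, was added after the data were examined. The pipeline was tested on simulated data. Depth ranged from 44736156 to 162939333 counts per sample, and with 2 replicates per stage the spread was estimated from all 5 stages together.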

Additional observations from a re-analysis of the deposited data

How the results depend on the processing

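The number of the 50 genes called at 21 d against subconfluent cells was 49 under every alternative except a threshold of more than 4-fold, which left 47. At 21 d against 14 d it was between 42 and 47, except 49 with no condition on the size of the change, where Bub3 and Cdc25b were added, and 11 at more than 4-fold. The count at 14 d against confluent cells was the least stable. It was 22, and became 39 with library size alone, 37 with limma on log2(RPKM + 1) with or without a filter, 39 with limma on log2(RPKM + 0.1), 42 with no condition on the size of the change and 0 at more than 4-fold, and between 17 and 26 with 1 sample left out. At 14 d against 24 h it was 1, and became 3 with library size alone, no filter or limma on log2(RPKM + 0.1), 2 with the sum of the lanes, 13 with no condition on size and 0 at more than 4-fold, and between 1 and 4 with 1 sample left out. At 24 h against confluent cells it was 0, and 7 with no condition on size, and between 0 and 8 with 1 sample left out, where 8 was without 24 h replicate B. The cause of these changes was not tested. In confluent against subconfluent cells no alternative called any. Pttg1 turned from 0.08 to -0.08 with library size alone, -0.03 with limma on log2(RPKM + 1) with or without a filter and -0.04 with limma on log2(RPKM + 0.1), at 21 d against subconfluent cells, with adjusted p-values between 0.75 and 0.98 in these fits. No median of the 50 genes changed sign in any comparison.

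The deviations of same-lettered samples correlated between -0.184 and 0.1 across stages, so no strong difference shared by the letters was seen. Weak correlations cannot decide whether the letters pair the samples, which the labels do not say. With the replicate letter as a block, 20 genes were called at 14 d against confluent cells, and 47 and 49 at 21 d against 14 d and against subconfluent cells. Leaving out 1 sample leaves a stage with 1, which is then assumed to vary like the other stages. Depth did not limit detection of these genes, but 2 replicates per stage limit the precision of every estimate.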

Other observations

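Among regulators of the same genes, members of the DREAM complex differed in direction. Rbl2 (p130), the pocket protein of DREAM in resting cells, was at 5.35 and 5.29 RPKM in the subconfluent replicates, 7.65 and 7.50 at 14 d and 9.14 and 10.2 at 21 d, a log2 change of 0.97 (SE 0.13, adjusted p = 0.00059) at 21 d against subconfluent cells, just below the 2-fold threshold. Its relative Rbl1 (p107), by contrast, fell by -2.22 (SE 0.23, adjusted p = 0.000199). Of the MuvB core, Lin9 fell by -2.34 (SE 0.25, adjusted p = 0.000236), while Lin52 and Lin37 had log2 fold changes of 0.14 and 0.41 with adjusted p-values of 0.378 and 0.208. Rb1 was at 0.31 (SE 0.17, adjusted p = 0.169). These genes were chosen after their values were seen.

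Within the kinetochore and centromere proteins outside the 50 genes, those not called lower at 21 d against subconfluent cells were Mis12, at -0.67 (SE 0.09, adjusted p = 0.00065), Cenpo, at -0.46 (SE 0.12, adjusted p = 0.0133), and Cenpx, at 0.55 (SE 0.42, adjusted p = 0.314). Among cohesin genes, which act in interphase as well as in mitosis, the core subunits Rad21 and Smc1a were called lower, with log2 fold changes of -1.43 and -1.24. Smc3 and Stag1 fell by less than 2-fold, at -0.89 (SE 0.13, adjusted p = 0.000964) and -0.48 (SE 0.16, adjusted p = 0.0421). Stag2 and Nipbl, the loader of the complex, had log2 fold changes of 0.25 and 0.21 with adjusted p-values of 0.32 and 0.689. Numa1, a spindle pole protein that is nuclear in interphase, had 0.09 (SE 0.19, adjusted p = 0.728).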
